A study of Arabidopsis thaliana with 31 samples.

Results

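The 5 *NPY* genes and 4 AGC protein kinase genes of polar auxin transport were examined in single cells of the *Arabidopsis thaliana* root. The members were chosen by locus and name, with no measured value in the rule, although earlier results of these data were known. They were *NPY1* (AT4G31820), *NPY2* (AT2G14820), *NPY3* (AT5G67440), *NPY4* (AT2G23050), *NPY5* (AT4G37590), *PID* (AT2G34650), *WAG1* (AT1G53700), *WAG2* (AT3G14370) and *D6PK* (AT5G55910). These are 9 of the 32678 loci in the table, of which 17508 were above 0 in at least 1 library. Of the 9 members, 8 were above 0 in a library, and *WAG1* was listed at 0 in all 31.

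Auxin moves from cell to cell through PIN efflux carriers that sit on a given side of the cell, and the AGC VIII kinases act on these carriers. PID, WAG1 and WAG2 phosphorylate the central loop of the PIN proteins and so bear on the side of the cell at which the carriers are placed, while D6PK phosphorylates PIN proteins at the plasma membrane and activates transport. The NPY proteins belong to the family of NPH3, a partner of the blue light receptor PHOT1. They act with PID-type kinases in organ formation and in root gravitropism and are found with PIN proteins at the plasma membrane.

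The libraries were poly(A) RNA amplified from 20 single quiescent center (QC) cells, 4 aliquots of pooled QC cells, 3 stele cells taken 0 h and 4 stele cells taken 16 h after the root tip was cut off. All plants were of the Col-0 background, at 6 DAS (days after stratification) for QC cells and aliquots and 7 DAS for stele cells, by the labels, while the study's methods give a lower age for the QC plants. QC cells were picked by *WOX5:GFP*, a reporter driven by the promoter of a QC gene. Stele cells were picked by *WOL:CRE-GR 35S:lox-CFP*, in which CRE driven by the stele promoter *WOL* becomes active on dexamethasone (DEX) and leaves a permanent mark in the cell and its daughters. Both stele groups carried this marker and had been induced with DEX. The cut removed the QC and the stem cells around it, and the 0 h plants were cut just before harvest, so that the groups differ in the time after the cut. The aliquots came from 4 QC cells that were pooled, lysed and split, so that they share 1 lysate. Every other library is 1 cell, and no plant is named for any cell, so group differences were not tested and each group is described by its cells.

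Library totals were 12071810 to 115114702 reads in QC cells, 83718007 to 127775758 in aliquots, 11637897 to 28121886 in stele cells at 0 h and 23387890 to 35185668 at 16 h. Values are given in FPM, reads per 1000000 of the library total. For 21 libraries, every gene above 0 was also above 0 in another library from the same tissue with a longer list of genes, here called the first library of its set. Libraries 8 to 13 of the QC cells lay within QC cell 1, libraries 3 to 7 within QC cell 2, and libraries 19 and 20 within QC cell 14. Number 1 was the first among the aliquots and in either stele group. A member that was 0 in a first library was 0 in the whole set, and there a true 0 and a gene left off the list cannot be told apart. A pair of nearly alike libraries was formed by QC cells 15 and 16 and another by QC cells 17 and 18, with a median chi-square per gene of 2.38 and 2.41 against at least 184 for any other pair. The QC marker list summed to 745 to 5196 FPM in QC cells and to at most 19.7 FPM in stele cells, although *AGL42* was nearly absent. The stele list summed to 439 to 1138 FPM at 0 h and 4.69 to 208 FPM at 16 h, where *SHR* was at 0, and *AHP6* was at 0 in every library.

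**Figure D1:**
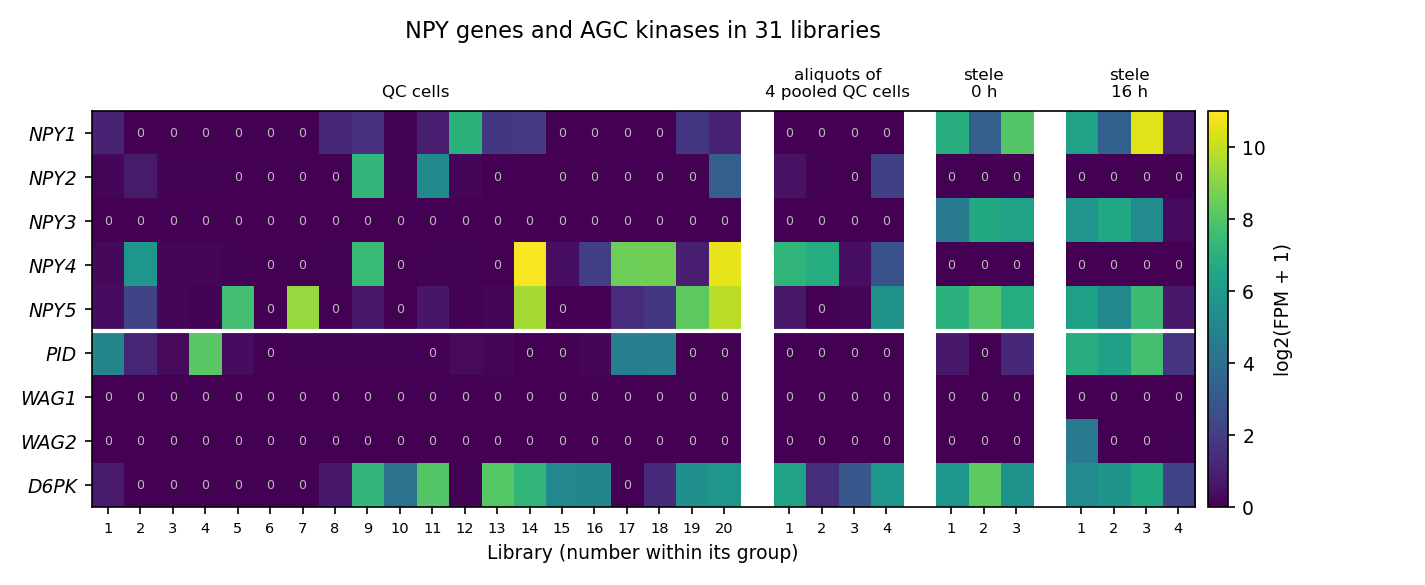
Level of the 9 members in each of the 31 libraries, as log2(FPM + 1) by colour, with a printed 0 where a gene was listed at 0. The columns are, from the left, 20 QC cells, 4 aliquots and 7 stele cells, the last 4 of these at 16 h. *NPY2* and *NPY4* have colour only among QC cells and aliquots, and *NPY3* only among stele cells.

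*NPY4* was detected in QC cells and aliquots and in no stele cell. It was above 0 in 16 of 20 QC cells (80%, with an exact 95% interval of 56.3 to 94.3% for counting error alone) and in each of the 4 aliquots, and it was listed at 0 in all 7 stele cells. In either stele group it was at 0 already in cell 1, the first library, so that the list of only 1 cell per group could have held it. The lowest QC cell was at 0, the median at 0.168 FPM and the highest at 1905 FPM. In 6 QC cells it was at 10 FPM or more. It was at 54.3 FPM in QC cell 2, 175 in QC cell 9 and 1905 in QC cell 14. QC cells 17, 18 and 20 were at 376, 388 and 1540 FPM. QC cells 17 and 18 are nearly alike, and with each such pair counted once 5 of 18 cells were at this level. Another 6 QC cells held 1 to 3 reads, so that most cells were either high or close to the detection limit. Of the summed FPM over QC cells, 42.9% came from QC cell 14 alone. The aliquots spanned 145, 112, 0.352 and 5.77 FPM, a ratio of 411 between the highest and the lowest. *NPY4* is also among the QC markers that the study chose from microarray profiles of sorted cells, which are not these libraries.

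*NPY5* was also above 0 in 16 of 20 QC cells, and unlike *NPY4* it was above 0 in every stele cell. The QC cells ran from 0 through a median of 0.439 FPM to 939 FPM. The 5 QC cells at 10 FPM or more were QC cell 5 at 206 FPM, QC cell 7 at 634, QC cell 14 at 742, QC cell 19 at 305 and QC cell 20 at 939. All 3 cells of the set of QC cell 14 were high, and in the set of QC cell 1 and among QC cells 15 to 18 the highest value was 2.45 FPM. The aliquots were at 0.701, 0, 0.117 and 48.0 FPM, so that 1 aliquot held 98.3% of the summed FPM.

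*NPY1*, also named *ENP* or *MAB4*, was above 0 in 10 of 20 QC cells, and all 10 belonged to the set of QC cell 1 or to that of QC cell 14. It was at 0 in the whole set of QC cell 2, in QC cells 15 to 18 and in all 4 aliquots. The lists of only 15 QC cells could have held *NPY1*. The values above 0 were mostly small, from 0.0828 to 2.55 FPM in 9 cells, with QC cell 12 apart at 133 FPM. *NPY2* was likewise above 0 in 10 of 20 QC cells. It reached 157 FPM in QC cell 9, 37.8 FPM in QC cell 11 and 8.93 FPM in QC cell 20, and 6 of the other cells held 1 to 3 reads. In the aliquots *NPY2* was at 0.471, 0.0478, 0 and 3.20 FPM, and it was listed at 0 in all stele cells. As for *NPY4*, the list of only 1 cell per stele group could have held it. *NPY3* was listed at 0 in all 20 QC cells and in all 4 aliquots. It was listed at 0 already in the first libraries QC cell 1, QC cell 2 and QC cell 14, so that the lists of only 7 QC cells could have held it.

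Among the kinases, *D6PK* was above 0 in 13 of 20 QC cells (65%, 40.8 to 84.6%) and had the highest median of the members, 1.09 FPM. It was at 10 FPM or more in 9 cells, from 17.1 FPM in QC cell 10 to 273 FPM in QC cell 13. It was at 0 in all 6 cells of the set of QC cell 2, and above 0 in all 7 of the set of QC cell 1 and all 3 of the set of QC cell 14. Since QC cell 2 is a first library, the lists of only 15 QC cells could have held *D6PK*, and 13 of these were above 0. The aliquots were at 80.2, 1.74, 6.81 and 54.4 FPM, each above 0.

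*PID* was above 0 in 14 of 20 QC cells (70%, 45.7 to 88.1%), but mostly at a few reads. It was at 31.2 FPM in QC cell 1, 286 in QC cell 4, 25.7 in QC cell 17 and 26.3 in QC cell 18, and 1.21 FPM was the highest value elsewhere. It was at 0 in the set of QC cell 14 and in all 4 aliquots, and the lists of 18 QC cells could have held it. *WAG1* and *WAG2* were listed at 0 in all QC cells and aliquots, and the lists of only 7 QC cells could have held either.

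Of all 17136 genes above 0 in a single cell, 35% were above 0 in at least 10 of 20 QC cells, against 6 of the 8 members among them. The members above 0 per QC cell numbered 4 at the median, from 0 in QC cell 6 to 6. When 10 FPM was required, the median was 1 member per cell, from 0 to 3. Genes above 0 in a QC cell and at 0 in all 7 stele cells, as *NPY2* and *NPY4* were, made up 11.6% of genes. Genes above 0 in all 7 stele cells and at 0 in all 20 QC cells, as *NPY3* was, made up 4.62%.

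A single *NPY* gene accounted for most of the *NPY* level of most QC cells, and the gene differed between cells. The gene with the most reads was *NPY4* in 9 cells, *NPY1* in 4, *NPY5* in 3 and *NPY2* in 1, and QC cell 6 held none. In 2 cells there was a tie, of *NPY4* and *NPY5* at 2 reads each in QC cell 3 and of *NPY1* and *NPY2* at 1 read each in QC cell 10. The leading gene held at least 90% of the summed *NPY* FPM in 12 of 19 cells. Aliquots of the same lysate also showed this, with at least 90% in 2 of 4 and shares of 75 to 99.96%. There *NPY4* led in 3 aliquots and *NPY5* in 1, so that the leading gene differed with the same input. In stele cells the level was more evenly divided. The leading *NPY* gene held 47.8 to 70.0% at 0 h and 38.6 to 86.7% at 16 h. *NPY5* led in 2 of 3 cells at 0 h, and *NPY1* in 3 of 4 cells at 16 h. Some QC cells had few *NPY* reads in all, as in QC cell 3 with 0.355 FPM and QC cell 4 with 0.187 FPM summed over the family.

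**Figure D2:**
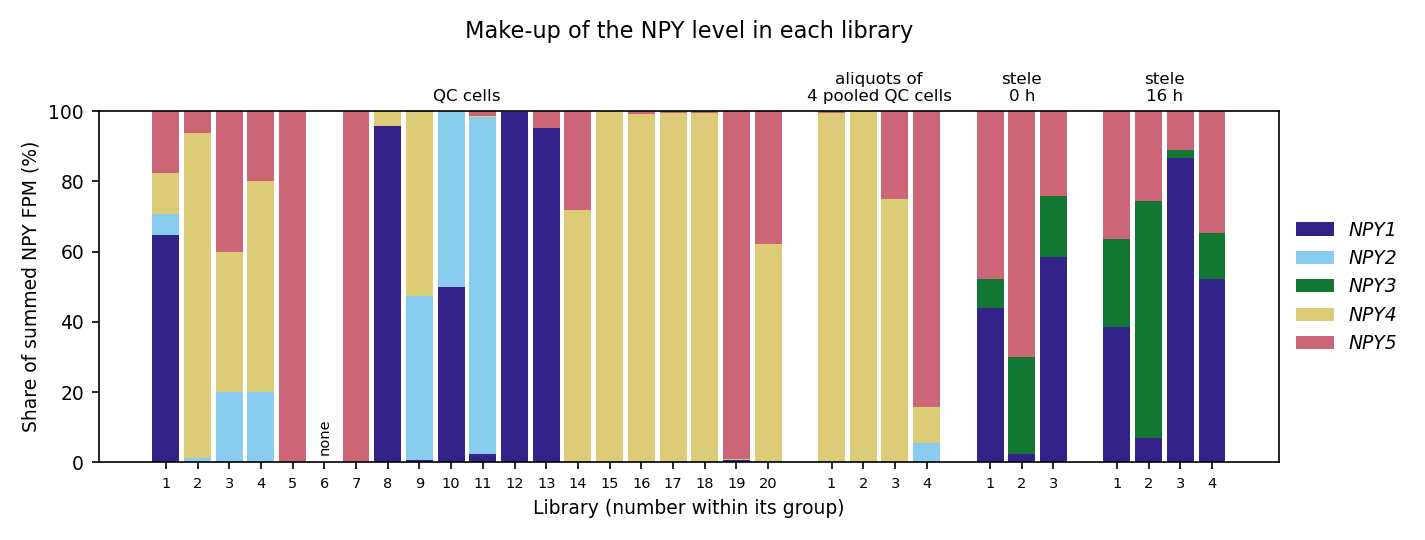
Share of each *NPY* gene, in percent, in the summed *NPY* FPM of each library, with 1 bar per library in the order of the groups. Most QC cells show a single colour, as in 12 of 19 cells where 1 gene holds at least 90%, while stele bars hold *NPY1*, *NPY3* and *NPY5* side by side. QC cell 6 held no *NPY* reads.

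In QC cells a single kinase gene likewise held most of the kinase level. *WAG1* and *WAG2* were at 0 there, so that only *PID* and *D6PK* could share it. *D6PK* led in 10 QC cells and *PID* in 9, and the leading kinase held at least 90% of the summed kinase FPM in 18 of 19 cells. In 6 of these the list could not hold both genes, and over the 13 others the count was 12. Some leads rested on few reads. *PID* led with 16, 3, 6, 1 and 6 reads in QC cells 2, 3, 5, 7 and 12, and *D6PK* with 11 reads in QC cell 8. A cell with 1 kinase read, as QC cell 7, has a share of 100% in any case. The leading kinase also held at least 90% in 4 of 4 aliquots and in 3 of 3 stele cells at 0 h, where *D6PK* led. At 16 h it was so in 0 of 4 stele cells. At 10 FPM or more, *PID* was found in 4 QC cells and *D6PK* in 9, and no QC cell had both. Counting each nearly alike pair once, these were 3 and 8 of 18 cells, again with none in common. Over these 13 cells, whose lists could hold both genes, *PID* was at this level in 3 and *D6PK* in 7, with none in common. The nearly alike QC cells 17 and 18 were among the *PID* cells here, and the nearly alike QC cells 15 and 16 among the *D6PK* cells. With so few cells for either gene, few would hold both in any case. Whether there were fewer than these counts would give was not tested. Above 0, *PID* was found in 14 and *D6PK* in 13 of 20 QC cells, and 8 cells had reads of both. With counts this high some cells must hold both, so this does not show whether the genes were apart. Across the 20 QC cells the Pearson r of their log2 values was -0.43, as a description of cells that share sets and depth. In stele cells at 16 h both were at 10 FPM or more in 3 of 4 cells.

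**Figure D3:**
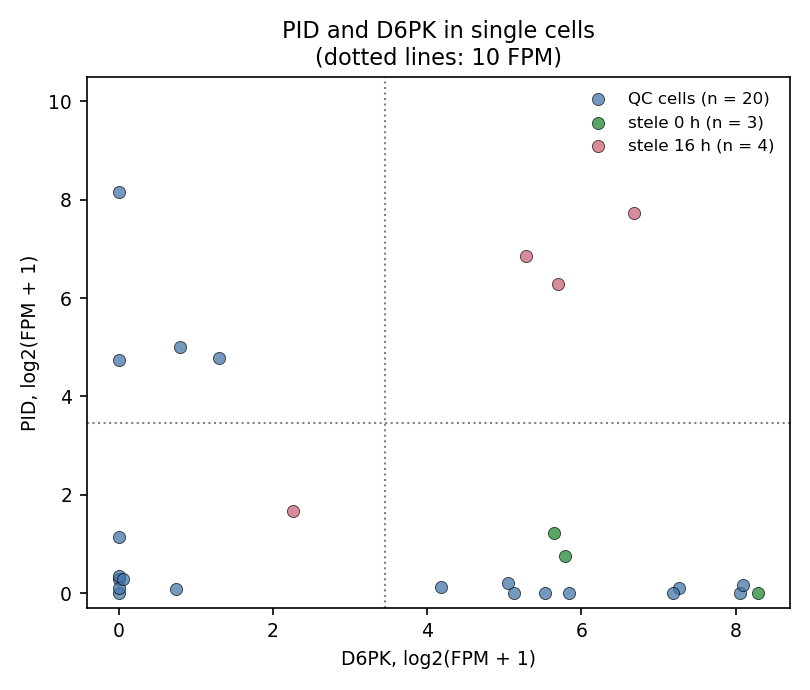
*PID* against *D6PK* in each single cell, both as log2(FPM + 1), with dotted lines at 10 FPM. No QC cell lies in the upper right field, where 3 of the 4 stele cells at 16 h lie, and the 3 stele cells at 0 h lie low for *PID* and high for *D6PK*.

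An *NPY* gene and a kinase gene were above 0 together in 19 of 20 QC cells (95%, exact interval 75.1 to 99.9%). The exception was QC cell 6, in which all 9 members were at 0. Each family alone was above 0 in the same 19 cells, so that the joint count follows from the family counts. At 10 FPM or more the pairing was found in 7 of 20 cells (35%, 15.4 to 59.2%), in 2 of 4 aliquots, in 3 of 3 stele cells at 0 h and in 3 of 4 at 16 h. At this level 11 QC cells held an *NPY* gene and 13 a kinase gene. Of the pairs of an *NPY* gene and a kinase, *NPY5* and *PID* were most often above 0 together in QC cells, in 12 of them, although at 10 FPM no QC cell had both. Alone they were above 0 in 16 and 14 QC cells. *NPY4* and *PID*, with the same counts alone, were together in 11. Whether any pair was met more often than the single counts would give was not tested. *NPY4* and *PID* were at 10 FPM together in 2 QC cells, the nearly alike QC cells 17 and 18.

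The aliquots show how far a member can vary when the input is the same. The SD of log2(FPM + 1) was 4.07 over QC cells and 3.26 over aliquots for *NPY4*. For *NPY5* the SD was 3.82 against 2.67. For *D6PK* it was 3.21 against 2.32, and for *NPY2* it was 2.03 against 0.96. The SD was thus larger over QC cells for 4 of the 4 members above 0 in both groups, against 63.6% of genes. A value near 0 in 1 library and above 100 FPM in another was nevertheless found between aliquots of the same lysate for *NPY4*. QC cells and aliquots also differ in depth and number of cells lysed. The study collected its QC cells in 4 batches, which the labels do not assign to cells, while the aliquots share 1 lysate. The part of all these in the difference was not tested.

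The stele cells at 0 h held *NPY1*, *NPY3*, *NPY5* and *D6PK*. *NPY1* was at 121, 8.96 and 267 FPM in cells 1 to 3. *NPY3* was at 22.4, 103 and 78.8 FPM, and *NPY5* was at 131, 262 and 109.9 FPM. Each was above 8 FPM in every cell, a level that few QC cells reached. *D6PK* was at 54.4, 311 and 49.1 FPM, while *PID* had 8 reads in cell 1, none in cell 2 and 27 reads in cell 3, or at most 1.33 FPM. *NPY2*, *NPY4*, *WAG1* and *WAG2* were listed at 0, already in cell 1, the first library of the set. The members above 0 per cell numbered 5 at the median, from 4 to 5.

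QC cells were compared with stele cells at 0 h by the difference of group medians of log2(FPM + 1), and a difference of at least 1 was called past 2-fold. Of the 7 members above 0 in either group, 4 were lower in QC cells past 2-fold and 0 were higher. Among all 16270 genes compared, 58.3% were lower and 4.71% higher, and the median difference was -1.90 over all genes and -4.75 over the members. Lower values in QC cells were thus common among genes at large. The difference was -6.87 for *NPY1*, -6.53 for *NPY5*, -6.32 for *NPY3* and -4.75 for *D6PK*. The cells of the groups did not overlap for *NPY3*, a pattern held by 13.2% of genes in this direction, and they overlapped for the other 3 members.

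These differences rest on the median cell and do not describe the high QC cells. The ratio of summed reads over summed totals was on the log2 scale 0.78 for *NPY5*, higher in QC cells, where 5 cells carried nearly all of 318.8 FPM against 185 FPM in stele cells. For *PID* the difference of medians was -0.61, while its ratio of summed reads was 4.64, from 14.5 FPM in QC cells and 0.583 FPM in stele cells, with 76.9% of the QC level in QC cell 4. For *D6PK* the difference was -0.74 when only libraries whose lists could hold the gene were kept, so that the call was lost there. *NPY2* and *NPY4* differed by 0.01 and 0.22, since the median QC cell held almost no reads of either. Summed over libraries *NPY4* was at 571 FPM in QC cells and listed at 0 in stele cells.

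Median levels were compared between members per kilobase of coding length, in FPM per kb. Reads were summed over all exons, and coding length leaves out their other parts, so that the order of close medians depends on this choice. In QC cells *D6PK* was at 0.731 and *NPY5* at 0.252, with ranges that began at 0 and overlapped. The medians of *NPY4*, *PID*, *NPY1* and *NPY2*, from 0.116 to 0.00456, stood for a few reads and were not ranked. At 0 h in stele cells *NPY5* was at 75.1, *NPY1* at 70.3, *NPY3* at 45.3 and *D6PK* at 36.3, again with overlapping ranges, and *PID* at 0.522 lay below all 4 without overlap. At 16 h *PID* was highest at 73.2, and *NPY5* at 32.0, *D6PK* at 29.7, *NPY1* at 26.2 and *NPY3* at 26.2 were too close to be ranked. The ranges of these 5 genes overlapped.

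Among the members, *PID* had the largest difference between stele cells at 16 h and 0 h. At 16 h it was at 115, 77.4, 212 and 2.18 FPM in cells 1 to 4, and the lowest of these was above the highest cell at 0 h, 1.33 FPM. The difference of medians was 5.82 on the log2(FPM + 1) scale, and the summed level was 103 FPM (101 to 105, counting error only) against 0.583 FPM (0.406 to 0.810). *PID* was above 0 in the first libraries of both groups. Its difference was 4.98 to 7.47 over 13 alternatives, and without cell 4 at 16 h it was 6.11. Of the 15156 genes compared, 25.6% were higher at 16 h past 2-fold, and 8.69% were so with no overlap between cells. Of the 6 members compared, only *PID* was higher past 2-fold. The QC cells were mostly low for *PID*, with a median of 0.104 FPM.

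*WAG2*, the relative of *PID*, was at 22.6 FPM in cell 1 at 16 h from 540 reads, at 0 in cells 2 and 3 and at 0.0428 FPM in cell 4 from 1 read. The difference of medians was 0.03 and did not pass 2-fold. It was above 0 in no library other than these, and *WAG1* in none. *D6PK* was at 38.0, 50.9, 102 and 3.81 FPM at 16 h, with a difference of -0.30, so that the values at 0 h and 16 h overlapped. *PID* was the leading kinase in 3 of 4 cells at 16 h, with 60.4 to 67.6% of the summed kinase FPM, and *D6PK* in cell 4 and in all 3 cells at 0 h.

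No *NPY* gene was without overlap between 0 h and 16 h. At 16 h *NPY1* was at 80.2, 9.72, 1474 and 1.03 FPM, *NPY3* at 52.1, 95.3, 39.0 and 0.257 FPM, and *NPY5* at 75.5, 36.0, 187 and 0.684 FPM. The values at 0 h lay within the range at 16 h for *NPY1*, and the groups overlapped for all 3 genes. *NPY1* and *NPY5* were lower at 16 h past 2-fold, with differences of -2.04 and -1.31, and *NPY3* was not, at -0.79. Of all genes, 28.4% were lower past 2-fold, against 2 of 6 members, and the median difference was 0.00 over all genes and -0.55 over the members. Without cell 2 or without cell 4 at 16 h the differences of *NPY1* and *NPY5* were -0.58 and -0.79, below 2-fold, and 1 member was past 2-fold in place of 3. Without cell 1 or cell 3 at 0 h the difference of *NPY1* was -0.81 or -0.24, and that of *D6PK* was -1.48 or -1.55. The ratio of summed reads of *NPY1* was 1.72, in the other direction, with 94.2% of the level at 16 h in cell 3. *NPY2* and *NPY4*, seen only in QC cells and aliquots, were listed at 0 in all 4 cells at 16 h, already in cell 1, the first library of the set. The members above 0 per cell numbered 5.5 at the median, from 5 to 6.

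**Figure D4:**
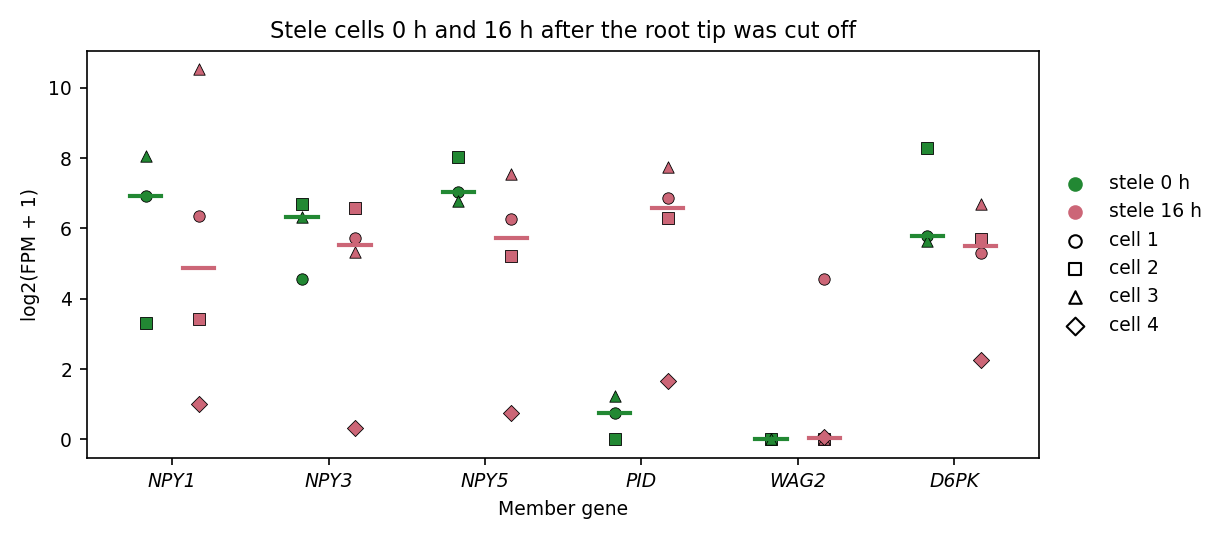
Level of 6 members in each stele cell as log2(FPM + 1), for 3 cells at 0 h and 4 cells at 16 h after the cut, with a line at each group median and a marker shape per cell number. *PID* is the gene whose cells do not overlap, and cell 4 at 16 h is the lowest of its group for *NPY1*, *NPY3*, *NPY5*, *PID* and *D6PK*.

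Cell 4 at 16 h was the lowest of its group for 5 of the 5 members above 0 in all 4 cells, as it was for 37.1% of genes. For *NPY3* the lowest of the other cells was 152 times its level, for *NPY5* 52.7 times, for *PID* 35.5 times, and for *D6PK* and *NPY1* 9.99 and 9.47 times. Its total of 23387890 reads and its 11316 genes above 0 were the lowest of the 4. Its stele markers summed to 27.4 FPM, against 208, 37.5 and 4.69 FPM in cells 1 to 3, so that it was not the lowest for these. The part of the library and of the cell type in its low values was not tested.

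The other genes of the pathway were described from 5 lists of related kinases, NPH3 relatives, kinase partners, opposing phosphatases and carriers. Among 13 other AGC VIII kinases, 8 were above 0 in a stele cell, of which 2 were higher and 4 lower at 16 h past 2-fold, against 25.6% and 28.4% of all genes, with a list median of -0.70. *PHOT1* was at 113 to 206 FPM at 0 h and 1.11 to 77.6 FPM at 16 h, without overlap, a pattern held by 11.1% of genes in this direction. *UCN*, a kinase known from ovule growth, and *AGC1.5*, known from pollen tubes, were above 0 in every cell at 0 h, with medians of 9.62 and 1.63 FPM, and listed at 0 at 16 h. Cell 1 at 16 h, the first library, was already at 0 for these genes, so that the lists of the other cells could not have held them. *KIPK* was similar at 50.9 and 52.2 FPM at the medians and was the highest of the list in QC cells, at a median of 33.1 FPM. AT3G27580, named *ATPK7* or *D6PKL3*, a relative of *D6PK*, was above 0 in 19 of 20 QC cells, with a median of 1.54 FPM. At 16 h it was higher than at 0 h by 2.39, with overlap.

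Of 5 other NPH3 and RPT2 family genes, 3 were above 0 in stele cells, and 2 were lower at 16 h past 2-fold, against 28.4% of all genes. *NPH3* was at 36.1 to 285 FPM at 0 h and 0.556 to 6.17 FPM at 16 h, without overlap, as 11.1% of genes were in this direction. *RPT2*, which acts in phototropism, had medians of 234 and 30.5 FPM with overlap. Both were listed at 0 in all QC cells.

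Each of the 5 partners of the kinases was above 0 in at least 6 of 7 stele cells and in 5 to 12 of 20 QC cells. *PDK1*, which activates AGC kinases, had medians of 65.3 and 36.5 FPM in stele cells at 0 h and 16 h and of 0.0355 FPM in QC cells. AT3G10540, annotated as a 3-phosphoinositide-dependent protein kinase, was lower at 16 h, with a difference of -2.84 and no overlap. *PBP1*, a calcium-binding partner of PID, was at 1.42 to 126 FPM at 0 h and at 0 to 1.01 FPM at 16 h, without overlap, and *TCH3*, a calmodulin-like partner, overlapped between 10.4 to 1658 FPM and 6.97 to 687 FPM. Thus 2 of 5 partners were lower past 2-fold and 0 were higher, against 28.4% and 25.6% of all genes. The lower ones were without overlap, against 11.1% of all genes.

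Of 9 subunits of phosphatases that oppose PID, 1 was lower at 16 h past 2-fold and 0 were higher, against 28.4% and 25.6% of all genes, with a list median of -0.07. The scaffold subunits *RCN1* and *PP2AA2* had medians of 343 and 146 FPM at 0 h and 327 and 234 FPM at 16 h. The catalytic subunit *FYPP3* had medians of 61.4 and 52.2 FPM. The gene that was lower was AT2G28360, annotated as SIT4 phosphatase-associated, at 58.3 to 82.8 FPM and 13.1 to 46.4 FPM. In QC cells 8 of the 9 were lower past 2-fold than in stele cells at 0 h, against 58.3% of all genes, and *PP2AA2* had the highest median, 69.1 FPM.

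Most carriers differed in the opposite direction to *PID*. The list held 6 auxin carriers known to be phosphorylated by AGC VIII kinases, not in each case by a member. Of these, 4 were lower at 16 h past 2-fold without overlap and 1 was higher with overlap, with a list median of -3.29. Of all genes, 11.1% were lower in this way, and 25.6% were higher past 2-fold with or without overlap. *PIN4* was at 43.7 to 126 FPM at 0 h and 0 to 0.770 FPM at 16 h. *PIN3* was at 105 to 318 FPM and 1.83 to 6.51 FPM, *PIN7* at 96.2 to 133 FPM and 0.168 to 54.6 FPM, and the ABC transporter *ABCB19* at 343 to 885 FPM and 10.4 to 161 FPM. *ABCB1* overlapped, at medians of 263 and 488 FPM, and no QC cell was without it, the median there being 254 FPM. *PIN4* was above 0 in 12 of 20 QC cells, with a median of 0.75 FPM. The summed stele markers moved with these carriers, from 439 to 1138 FPM at 0 h to 4.69 to 208 FPM at 16 h, and their part in the result was not tested. All differences here share the 3 stele cells at 0 h.

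**Figure D5:**
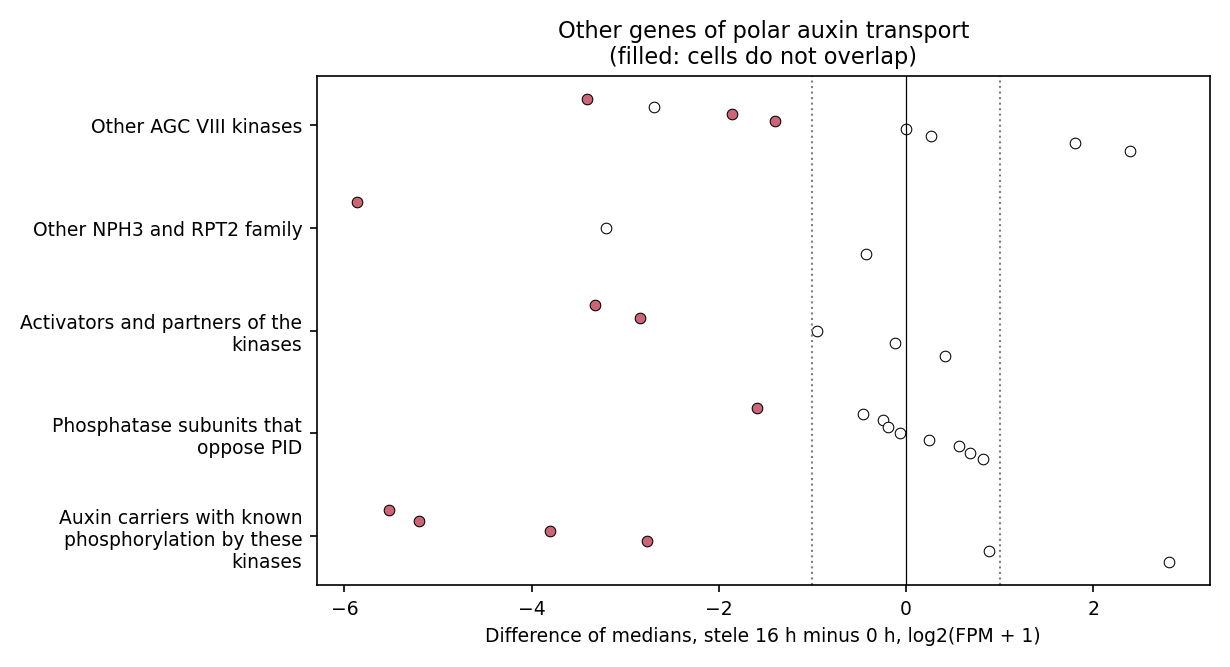
Difference of group medians of log2(FPM + 1), stele cells at 16 h minus 0 h, for each gene of the 5 lists above 0 in a stele cell, with dotted lines at a difference of 1 in either direction. Filled points are genes whose cells at 0 h and 16 h do not overlap and all lie to the left, with 4 of them among the 6 carriers.

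The genes most like *D6PK* and *NPY5*, the members with the highest median in QC cells and in stele cells, were sought by Pearson r of log2(FPM + 1) over the 31 libraries, among 10957 other genes above 0 in at least 10 libraries. For *D6PK* they were *CBR* at 0.85, *ARLA1C* at 0.83, *GAPCP-1* at 0.82 and *SQN* at 0.76. For *NPY5* they were AT5G55900 at 0.81, AT5G47435 at 0.79, AT5G03500 at 0.78 and AT1G56230 at 0.77. These are descriptions over libraries that share sets, groups and depth.

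The sequence of the genes bears on how far the members can be told apart. In the TAIR10.1 annotation the coding lengths ran from 1317 bases for *PID* to 1905 bases for *NPY2*. Of all windows of 50 bases, the read length, in their transcripts, 5 windows of *NPY5* were found elsewhere in the genome and none of the other 8 genes. *NPY1* had 1 near match elsewhere, of 58 bases at 96.6% identity. *NPY2*, on chromosome 2, shares 135 exon bases with AT2G14810 on the other strand, which was listed at 0 in all 31 libraries. *D6PK*, on chromosome 5, shares 16 exon bases with AT5G55900 on the other strand. The libraries do not mark strand, so reads in these bases cannot be assigned. AT5G55900 was above 0 in 5 libraries without *D6PK*, which was above 0 in 10 libraries without AT5G55900, and their r over the 31 libraries was 0.23.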

How the data were processed

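Per the labels and the study's methods, the authors aligned single-end reads to TAIR10 with Bowtie2, summed reads on exons with partial reads for several locations, removed genes covered over few bases, normalized to depth and deposited log2 values. The log2 values were undone, and all 159038 values under 1000 steps were whole multiples of a step per library within 0.05. The step was taken as 1 read, although it may stand for a partial read. FPM were computed from totals without the 2 reporters. A pseudocount of 1 FPM and no filter were used. Since 1 library was 1 cell and no plant was named, medians and ranges were given, with exact Clopper-Pearson and Poisson intervals that cover counting error only. The floor of 3 reads was 0.0235 to 0.258 FPM over libraries.

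The members and lists were chosen with earlier results of these data known. All 9 members were named, and of each list the 2 genes with the highest median in QC cells, the 2 highest in stele cells, and those past 2-fold between stele groups without overlap. A further list gene that this rule would name is not reported here and is left out of the counts. Nearly alike libraries were found by chi-square over genes with at least 20 reads. Gene names, coding lengths and overlaps were taken from RefSeq's TAIR10.1 annotation, whose assembly differs from that of the authors, so no coordinates were given. Near matches were found with blastn 2.17.0 at 94% identity over 50 bases. Computations were run in Python 3.11.15 (pandas 2.3.3, numpy 2.4.6, scipy 1.17.1, plots by matplotlib 3.10.9), and they were tested on simulated data. Alternatives were other levels of detection, thinning, pseudocount, filter, scaling, sets of libraries, summed reads, means, and leaving out a stele cell or an aliquot.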

Additional observations from a re-analysis of the deposited data

Results flagged for a closer look

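*NPY5* in aliquot 4 had a log2(FPM + 1) of 5.62, far above the other 3 aliquots of the same lysate, with a gap to the next of 0.863 of the whole range. *WAG2* in cell 1 of the stele cells at 16 h had a log2(FPM + 1) of 4.56, with a gap of 0.987 of the range, while the other 3 cells held 1 read or none. Of 10 groups of 4 libraries examined, 2 held such a value past Dixon's critical value, which served only to choose values to look at. Chance gives about 1 in 20 for normal values, which groups with several values of 0 do not follow.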

How the results depend on the processing

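No paired analysis was possible because the numbers of cells and aliquots pair nothing across groups and group differences were not tested. Over 57 alternatives of the main results, 47 kept their value within the spread or within 1.5 times, and over 141 alternatives of single members 130 did. The spread is the SD between cells, so a call past 2-fold can be lost or turn within it. A count can also stay the same while its directions change. Between stele groups *NPY1* was past 2-fold in 7 of 13 alternatives and *PID* in 13 of 13. The level of detection moved the counts. At 1 FPM and 10 FPM the median of members per cell was 2 and 1 in QC cells in place of 4, and 4 and 4 in stele cells at 0 h in place of 5. At 10 FPM it was 4.5 at 16 h in place of 5.5. An *NPY* gene and a kinase were found together in 11 and 7 QC cells in place of 19. By group means 5 members were past 2-fold between stele groups in place of 3. Leaving out 1 stele cell gave 1 to 3, with 1 when cell 2 or cell 4 at 16 h was left out. By summed reads, with members at 0 in a group left out, *NPY5* was at 0.78 between QC and stele cells and *NPY1* at 1.72 between stele groups, the other way from the medians, since a few cells held most reads. With only the first libraries of the stele groups, 3 members were higher at 16 h (*NPY3*, *PID* and *WAG2*) and 0 lower. *NPY4* was higher in QC cells past 2-fold by means at 2.81, with a pseudocount of 0.1 FPM at 1.42 and with scaling by the median ratio at 1.15. That scaling moved the median of all genes from -1.90 to -2.16 between QC and stele cells. Libraries of 1 cell, shared sets and amplification limit all values, and members at a few reads cannot be ranked.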
